A study of Mus musculus with 15 samples.

Results

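The genes described here build, fold and crosslink the extracellular matrix. They were chosen by symbol alone and comprise the collagens, the laminins, nidogen 1 and nidogen 2, perlecan (Hspg2), elastin (Eln), fibrillins, fibulins, the lysyl oxidases, the lysyl hydroxylases (Plod genes) and Sparc. The rule used no measured value. It found 64 members among the 12089 transcripts of the table, of which 35 were collagens and 11 laminins, and all 64 were among the 12079 transcripts tested. Of 74 genes listed by matrix type, 10 had no row and are not analysed here, among them Col4a3, Col4a4 and Col10a1.

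RNA-seq was used to follow mouse dental mesenchymal cells (mDMCs) while they lose the ability to direct tooth formation in culture. The source was the lower first molar of mouse embryos at E14.5. The paper names ICR, an outbred stock, for the adult hosts of its grafts. Its mesenchyme was freed of epithelium by dispase and dispersed with trypsin. Cells taken before plating (0 h, 3 libraries) were compared with cells kept in FBS-supplemented DMEM for 12 h (2 libraries), 24 h, 36 h and 48 h (3 libraries each). Dental mesenchymal tissue without culture gave 1 library. Nothing in the labels sets the groups apart by strain or embryonic age, and no allele is named for any of them. The 0 h cells were also dispersed with trypsin. Every cultured library combines plating, medium with serum, penicillin and streptomycin, and time, which cannot be told apart in these samples. The sources used here do not say whether the replicates came from separate litters or cultures, so p-values measure only the spread between these libraries, which may be technical.

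Collagens are triple-helical proteins whose chains assemble into fibrils, into beaded microfilaments, into sheets or into short proteins of the cell surface. Laminins and the type IV collagen network, linked by nidogens and perlecan, make up basement membranes, such as the one between dental epithelium and mesenchyme. Lysyl hydroxylases modify collagen lysines inside the cell, and lysyl oxidases join collagen and elastin molecules outside it. In the tooth, the mesenchyme gives rise to the pulp and to the odontoblasts, which lay down a dentin matrix made mostly of type I collagen.

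The values are scores, whole numbers on a scale that every library shares (median 721, largest 127101), and the depth of the libraries is unknown. At the top of the scale the scores came in sets of 10 nearly equal values, 127101 for ranks 1 to 10, 70508 to 70809 for ranks 11 to 20 and 50354 to 50602 for ranks 21 to 30. A member near the top therefore moved in steps, and the first step was 1.8-fold. Changes were computed as differences in log2(score + 1) and tested in limma over all 12079 transcripts, with Benjamini-Hochberg adjusted p-values called below 0.05, and a fold on this scale understates the change of low genes. Scores are not compared between genes. In bulk libraries, fewer cells of a type and less RNA per cell cannot be told apart.

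From 0 h to 48 h, 37.1% of all transcripts tested rose and 34% fell, and each marker count at 48 h stands beside these shares. Of the 13 dental mesenchyme markers with a value, 0 rose and 8 fell from 0 h to 48 h. Their summed score ran from 85484 to 102298 at 0 h and from 50101 to 59930 at 48 h. At 12 h, 3 of them were higher than at 0 h (Dlx2, Msx2 and Prrx2) and 8 lower, against 29.9% and 28.3% of all transcripts. Prrx1, a transcription factor gene of craniofacial mesenchyme, read 40667 to 50479 at 0 h and 31853 to 36409 at 48 h (log2 -0.39, adjusted p = 0.163). Pdgfra, Pax9 and Osr2 were among those that fell (log2 -2.69, -2.37 and -2.93). All 11 endothelial markers with a value fell, and their sum went from between 11703 and 14628 at 0 h to between 1643 and 2140 at 48 h, with 18178 in the tissue, and Cldn5 was listed at 0 in every library at 24, 36 and 48 h. All 5 macrophage markers and all 6 red cell markers with a value fell: the macrophage sum ran from 944 to 1419 at 0 h and from 337 to 397 at 48 h, and the red cell sum from 85776 to 135242 and from 44 to 162. Of 8 pericyte and smooth muscle markers 3 rose and 4 fell, with sums of 8993 to 10345 at 0 h and 11412 to 13249 at 48 h. These sums join genes that moved in opposite directions. The fallers were Kcnj8, Abcc9, Rgs5 and Notch3 (log2 -5.49, -5.12, -3.94 and -0.80), and the risers Myh11, Cspg4 and Mcam (log2 3.98, 1.64 and 1.16). Of 3 glial and neuronal markers 2 rose and 1 fell, with sums of 276 to 851 and 534 to 1840. Of 12 epithelial markers 1 rose and 6 fell, with a median log2 change of -1.89. They summed to 22217 in 0 h replicate 1 against 2564 and 2880 in the other 0 h libraries, 2203 to 3890 at 48 h and 9616 in the tissue. The riser, Perp, made up much of the 48 h sum. It read 673, 69 and 71 at 0 h and 1599, 1853 and 2515 at 48 h. The 36 h replicates 1 and 2 stood closer together than any other pair of replicates, where the log2 scores differed by a root mean square of 0.288 against 0.354 to 0.549.

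From 0 h to 12 h, 13 of the 64 members rose, 29 fell and 22 were not called. Over all transcripts tested, 29.9% rose and 28.3% fell. At 24 h the counts were 14 higher and 32 lower than at 0 h (all transcripts 35% and 31.8%), at 36 h 20 and 28 (36% and 34%), and at 48 h 18 and 31 (37.1% and 34%). Thus 48.4% of members were lower at 48 h and 28.1% higher. The median log2 change of the members was -0.52 at 12 h and -0.34 at 48 h, whereas that of all transcripts was 0.02 and 0.03. With a fold above 2 as well, 8 members were higher and 22 lower at 12 h (12.1% and 12% of all transcripts), 9 and 26 at 24 h (13.8% and 14.1%), and 12 and 29 at 48 h (16.1% and 15.8%). The collagens carried most of the falls: 6 rose and 23 fell among 35, with a median of -1.30 on the log2 scale.

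**Figure D1:**
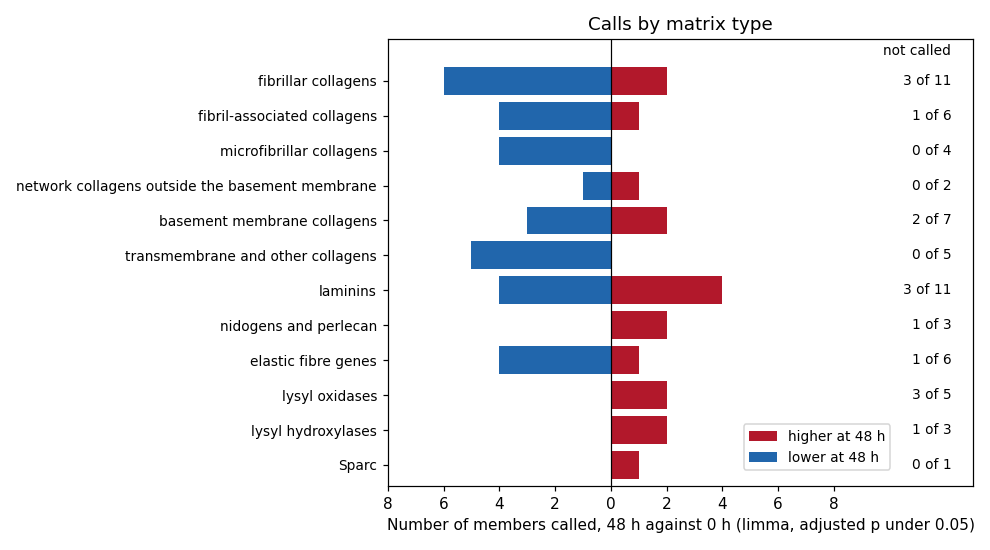
Number of matrix genes called higher (right, red) or lower (left, blue) at 48 h than at 0 h in each matrix type, with limma and an adjusted p under 0.05; the column at the right gives the members not called. Microfibrillar collagens (4 genes) and the group of transmembrane and other collagens (5 genes) lie only on the lower side. Lysyl oxidases, lysyl hydroxylases, and nidogens with perlecan (2 genes each) and Sparc lie only on the higher side.

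The transmembrane collagens and Col26a1 had the lowest median change of the matrix types. All 5 genes of this group fell by 48 h (all transcripts 34%), with a median log2 change of -4.71 and a range from -6.94 to -3.30. Col26a1, which encodes a small secreted collagen, scored 13679, 15625 and 16542 at 0 h, 669 and 841 at 12 h, 474, 277 and 247 at 24 h, 227, 242 and 140 at 36 h, 131, 117 and 121 at 48 h and 13304 in the tissue. Every cultured library lay far below the 3 libraries at 0 h, and the log2 change at 48 h was -6.94 (SE 0.24, adjusted p = 1.09e-10), a 123-fold fall and the largest among the members. Col13a1, a transmembrane collagen of cell adhesion sites, gave 1027, 1290 and 1070 at 0 h, 99 and 91 at 12 h, 61, 49 and 41 at 24 h, 23, 26 and 41 at 36 h, 46, 13 and 17 at 48 h and 1203 in the tissue. Its log2 change was -5.62 (SE 0.37, adjusted p = 3.51e-08), with no overlap between 0 h and any later library.

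Col23a1 and Col25a1 also encode collagens that span the plasma membrane. The Col23a1 scores were 3118, 3886 and 4377 at 0 h, 518 and 628 at 12 h, 213, 264 and 321 at 24 h, 156, 142 and 166 at 36 h, 133, 177 and 151 at 48 h and 3472 in the tissue. For Col25a1, listed by a retained intron transcript, they were 2448, 2209 and 2060 at 0 h, 254 and 272 at 12 h, 153, 115 and 105 at 24 h, 97, 118 and 57 at 36 h, 92, 89 and 73 at 48 h and 1767 in the tissue. Both genes kept falling after 12 h, Col23a1 to 24.5-fold and Col25a1 to 26.2-fold below 0 h (log2 -4.61, SE 0.17, adjusted p = 2.19e-10 and log2 -4.71, SE 0.23, adjusted p = 2.16e-09). Col17a1, the hemidesmosome collagen of epithelial cells, read 1146, 121 and 82 at 0 h and 16, 37 and 18 at 48 h (log2 -3.30, SE 0.82, adjusted p = 0.00302). The high 0 h library is replicate 1, which also had the high epithelial marker sum. Without it the change was -2.13 (adjusted p = 0.00635), and without 0 h replicate 3 it was -4.02. The part of epithelial cells in the Col17a1 fall was not tested.

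The 250 bases before the Col23a1 start (chr11:51289670-51289919, plus strand, GRCm38.p6, from RefSeq) are shown as those of the member of this group whose change had the smallest standard error. Capitals mark a GC box read on the other strand.
Col23a1: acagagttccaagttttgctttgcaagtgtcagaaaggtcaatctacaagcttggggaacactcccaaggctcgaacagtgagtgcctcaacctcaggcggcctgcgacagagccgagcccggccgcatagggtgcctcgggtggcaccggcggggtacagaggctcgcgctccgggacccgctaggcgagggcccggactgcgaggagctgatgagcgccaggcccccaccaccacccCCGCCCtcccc
The 4 motifs searched on both strands were the CCAAT box, the GC box GGGCGG, the TATA box TATAAA and the AP-1 site TGACTCA. This stretch held 1 copy of GGGCGG, whose first base lay 11 bases before the start.

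Among the fibrillar collagens, which form the banded fibrils of bone, dentin, skin and cartilage, 2 of 11 members rose and 6 fell by 48 h (18.2% and 54.5%, against 37.1% and 34% of all transcripts). Col1a1, for the main chain of type I collagen, scored 23192, 20857 and 23192 at 0 h, 28764 and 20857 at 12 h, 28764, 23192 and 16489 at 24 h, 28764, 28764 and 25013 at 36 h, 17348, 18505 and 15596 at 48 h and 25013 in the tissue. The 48 h libraries lay below those at 0 h, but the change was not called (log2 -0.39, SE 0.18, adjusted p = 0.0686). Without 24 h replicate 1 or 24 h replicate 3, which only enter the spread, it was called (adjusted p = 0.0345 and 0.0223, and 0.0131 to 0.185 over all alternatives). The partner chain Col1a2 was at the largest score in 9 libraries, with 127101, 127101 and 127101 at 0 h, 70675 and 70675 at 12 h, 127101, 50479 and 50479 at 24 h, 127101, 127101 and 70675 at 36 h, 70675, 127101 and 127101 at 48 h and 127101 in the tissue. Its row is a transcript of 850 bases and 13 exons, and a difference above the largest score cannot be seen.

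Col3a1, for the type III collagen of soft connective tissue, left the top of the scale. Listed by a retained intron transcript of 4 exons, it read 127101, 127101 and 127101 at 0 h, 127101 and 127101 at 12 h, 70714, 40684 and 36428 at 24 h, 70714, 70714 and 70714 at 36 h, 50508, 40684 and 40684 at 48 h and 127101 in the tissue. All 0 h and 12 h libraries stood at the largest score, where a change between them could not be seen. Every later library was lower, and the change at 48 h was -1.54 (SE 0.2, adjusted p = 1.93e-05). The libraries at 0 h, 12 h and 36 h did not differ within a time, so its own spread in this SE comes only from 24 h and 48 h. Since the 0 h scores sit at the largest value, the true fall may be larger. Col5a2, a type V chain found inside collagen fibrils and a neighbour of Col3a1 on chromosome 1, moved the other way. It stood at 50508, 50508 and 50508 at 0 h, 70714 and 70714 at 12 h, 127101, 127101 and 127101 at 24 h, 127101, 127101 and 127101 at 36 h, 127101, 127101 and 127101 at 48 h and 50508 in the tissue. The log2 rise of 1.33 (SE 0.11, adjusted p = 3.25e-07) also ended at the largest score. All Col5a2 libraries of a time had the same stepped score. Its SE and p-value in limma therefore rest on the spread of other transcripts and not on its own.

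Col5a3, the third type V chain, showed the largest fold among fibrillar collagens. Its scores were 37, 68 and 31 at 0 h, 715 and 710 at 12 h, 466, 571 and 583 at 24 h, 312, 280 and 280 at 36 h, 365, 968 and 633 at 48 h and 84 in the tissue. The step was complete by 12 h (log2 4.03, SE 0.35, adjusted p = 1.00e-06), and at 48 h the change was 3.80 (SE 0.31, adjusted p = 2.65e-07). The Col5a3 promoter, shown for this rise, held 1 CCAAT box whose first base lay 122 bases before the start and 2 GC boxes on the other strand at 63 and 41 bases, all in capitals (chr9:20815068-20815317, minus strand, GRCm38.p6, RefSeq).
Col5a3: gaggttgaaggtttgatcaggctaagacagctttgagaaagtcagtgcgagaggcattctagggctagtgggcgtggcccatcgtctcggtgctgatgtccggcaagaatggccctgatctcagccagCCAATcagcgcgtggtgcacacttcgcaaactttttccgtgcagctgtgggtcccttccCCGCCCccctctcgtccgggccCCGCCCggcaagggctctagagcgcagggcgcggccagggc
Col24a1, a fibrillar collagen of developing bone, read 503, 331 and 345 at 0 h, 95 and 101 at 12 h, 82, 49 and 66 at 24 h, 76, 57 and 47 at 36 h, 57, 38 and 48 at 48 h and 755 in the tissue. It fell by 3.01 on the log2 scale (SE 0.25, adjusted p = 2.74e-07), and no cultured library reached the 0 h range.

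Col2a1, Col11a1, Col11a2 and Col27a1 fell by 48 h, with log2 changes between -1.26 and -0.88 and adjusted p-values between 1.28e-04 and 0.0123. The row of Col27a1 is a retained intron transcript. The Col2a1 call was lost without 48 h replicate 3 (adjusted p = 0.0544, 0.00174 to 0.0544 over all alternatives). Col11a1, which helps set fibril diameter, read 31886, 31886 and 23247 at 36 h and 11655, 6575 and 6101 at 48 h. Col5a1 read 36379, 31803 and 36379 at 0 h and 50435, 31803 and 25022 at 48 h, groups that overlapped (log2 -0.02, SE 0.23, adjusted p = 0.936).

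Fibril-associated collagens coat the surface of fibrils, and 1 of 6 members rose and 4 fell by 48 h (16.7% and 66.7%, against 37.1% and 34% of all transcripts). Col9a2, a chain of the type IX collagen that decorates cartilage fibrils, scored 1256, 1121 and 884 at 0 h, 132 and 159 at 12 h, 72, 14 and 43 at 24 h, 22, 18 and 14 at 36 h, 13, 8 and 8 at 48 h and 1507 in the tissue. It was lower than 0 h at every culture time, and the further falls were called from 12 h to 24 h (adjusted p = 0.0281) but not from 24 h to 36 h or from 36 h to 48 h (adjusted p = 0.147 and 0.445). At 48 h it stood 103-fold below 0 h (log2 -6.69, SE 0.45, adjusted p = 3.79e-08). Col14a1, a regulator of fibril growth, read 471, 452 and 211 at 0 h, 155 and 101 at 12 h, 71, 30 and 26 at 24 h, 34, 47 and 21 at 36 h, 21, 17 and 17 at 48 h and 1333 in the tissue. Its log2 change was -4.21 (SE 0.42, adjusted p = 1.37e-06), and the tissue exceeded every cell library.

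Col16a1 scored 4608, 4993 and 3955 at 0 h, 1494 and 1662 at 12 h, 1578, 1429 and 1150 at 24 h, 1348, 1343 and 1524 at 36 h, 1265, 1183 and 1150 at 48 h and 6559 in the tissue. Most of its fall was present by 12 h (log2 -1.51, SE 0.13, adjusted p = 1.01e-06), and it reached -1.91 at 48 h (SE 0.12, adjusted p = 1.99e-08). Col19a1, a rare collagen of basement membrane zones, was the riser of the group, with 20, 22 and 14 at 0 h, 166 and 153 at 12 h, 245, 158 and 91 at 24 h, 203, 207 and 160 at 36 h, 154, 139 and 109 at 48 h and 18 in the tissue. All cultured libraries lay above 0 h and tissue (log2 2.79, SE 0.3, adjusted p = 2.95e-06), and its row is a processed transcript rather than the coding one. Col12a1, a collagen of stretched tissue, held the largest score in all 14 cell libraries and 40680 in the tissue, so a change in culture cannot be seen on this scale. Col22a1 read 171, 80 and 48 at 0 h and 62, 22 and 45 at 48 h, and its call at 48 h (log2 -1.12, SE 0.47, adjusted p = 0.0472) was lost in 13 of 21 alternatives. It was lost on leaving out any 1 library other than 0 h replicate 3, 24 h replicate 1, 36 h replicate 2 or 48 h replicate 1, with an adjusted p of 0.222 without 0 h replicate 1 and a range of 0.0116 to 0.222.

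All 4 type VI collagen genes with a value fell at 12, 24, 36 and 48 h (all transcripts 21.0% lower at all 4 times). Their chains form beaded microfilaments around cells, and the median log2 change of these genes was -2.32 at 48 h. Col6a4 and Col6a5, which also encode type VI chains, are not analysed here. Col6a1 scored 9183, 12945 and 9588 at 0 h, 5769 and 6623 at 12 h, 4750, 4023 and 3449 at 24 h, 4038, 4133 and 4133 at 36 h, 3797, 4570 and 4426 at 48 h and 13280 in the tissue. Col6a2, its neighbour on chromosome 10, scored 12983, 13679 and 15625 at 0 h, 7242 and 6101 at 12 h, 3869, 3324 and 2979 at 24 h, 2811, 2651 and 3093 at 36 h, 1988, 2709 and 2580 at 48 h and 14408 in the tissue. Neither gene had a cultured library within its 0 h range, and Col6a2 fell further (log2 -2.55, SE 0.13, adjusted p = 4.27e-09) than Col6a1 (log2 -1.30, SE 0.14, adjusted p = 2.91e-06), a difference that was not tested. Col6a3 read 31828, 40654 and 127101 at 0 h, 17371 and 15100 at 12 h, 12502, 16511 and 16511 at 24 h, 10090, 10443 and 10443 at 36 h, 9597, 17371 and 12502 at 48 h and 13663 in the tissue. One 0 h library stood at the largest score, and the change of -2.10 (SE 0.39, adjusted p = 3.27e-04) was -1.49 without that library, 0 h replicate 3 (adjusted p = 6.22e-05). Col6a6 gave 169, 248 and 180 at 0 h, 53 and 53 at 12 h, 45, 39 and 61 at 24 h, 33, 23 and 24 at 36 h, 10, 27 and 24 at 48 h and 523 in the tissue, the largest fall of the 4 (log2 -3.32, SE 0.33, adjusted p = 1.55e-06).

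The type VIII chains, which together build hexagonal sheets, parted. Col8a1 scored 3365, 3590 and 3082 at 0 h, 14404 and 13302 at 12 h, 50500, 36423 and 10725 at 24 h, 40680, 40680 and 50500 at 36 h, 31878, 36423 and 25064 at 48 h and 4280 in the tissue. It rose 9.21-fold by 48 h (log2 3.20, SE 0.41, adjusted p = 1.25e-05), and 24 h replicate 3 stood apart from the other 24 h libraries. Col8a2 was not called at 12 h and then declined, with 12064, 13655 and 11608 at 0 h, 14364 and 13655 at 12 h, 10705, 5536 and 5423 at 24 h, 5208, 5208 and 4753 at 36 h, 2344, 3261 and 2370 at 48 h and 13284 in the tissue. Its log2 change at 48 h was -2.24 (SE 0.21, adjusted p = 9.77e-07).

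**Figure D2:**
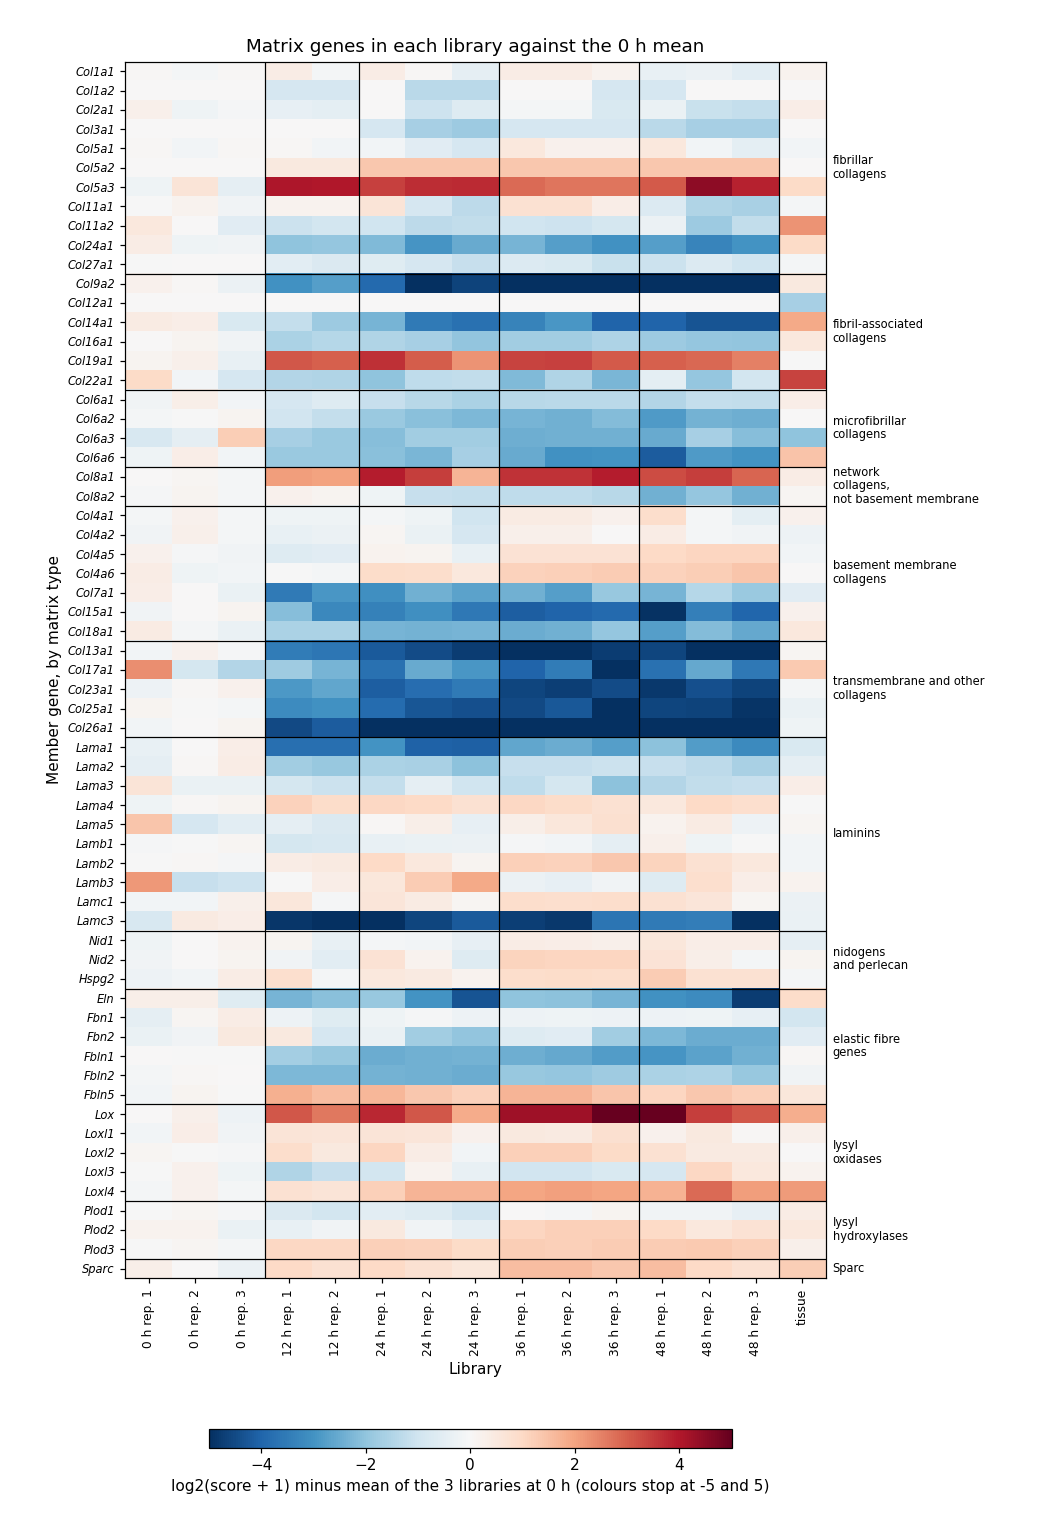
Change of 63 of the 64 matrix genes in each library, as log2(score + 1) minus the mean of the 3 libraries at 0 h, with genes in rows by matrix type and libraries in columns by time; red is above and blue below the 0 h mean. Col9a2, Col14a1, the type VI collagens and the transmembrane collagens are blue from 12 h on, Lox, Col8a1, Col5a3 and Col19a1 are red in every cultured library, and 0 h replicate 1 stands out for Col17a1, Lama5 and Lamb3.

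Among basement membrane collagens, 2 of 7 members rose and 3 fell by 48 h (28.6% and 42.9%, against 37.1% and 34% of all transcripts). Col4a1 and Col4a2, the chains of the common type IV network, were not called at any culture time. Col4a1 read 25036, 31828 and 25036 at 0 h and 50457, 25036 and 19244 at 48 h, and Col4a2 14408, 19261 and 15128 and 20924, 15128 and 14408, with overlap in both genes. Their rows are transcripts that start head to head on chromosome 8 and overlap by 22 bases.

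Col4a5 and Col4a6, another head-to-head pair with 1308 bases between their transcripts on chromosome X, rose together. Their protein chains join in the type IV network of certain epithelial and smooth muscle basement membranes. Col4a5 scored 1668, 1359 and 1268 at 0 h, 914 and 970 at 12 h, 1623, 1581 and 1111 at 24 h, 2316, 2368 and 2316 at 36 h, 2872, 3014 and 2979 at 48 h and 1299 in the tissue. It fell first (log2 -0.59, SE 0.15, adjusted p = 0.00408) and then rose from 12 h to 48 h (log2 1.65, SE 0.15, adjusted p = 5.61e-06), ending 2.08-fold above 0 h (adjusted p = 1.17e-05). Col4a6 scored 254, 172 and 178 at 0 h, 194 and 184 at 12 h, 373, 361 and 286 at 24 h, 442, 449 and 478 at 36 h, 444, 466 and 515 at 48 h and 199 in the tissue. It was not called at 12 h and stood 2.39-fold above 0 h at 48 h (log2 1.25, SE 0.15, adjusted p = 7.87e-06), and the 36 h and 48 h libraries of both genes lay above every 0 h library and the tissue.

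The stretches before both starts are shown because these neighbours moved together (GRCm38.p6, RefSeq). For Col4a5 it is chrX:141475169-141475384 on the plus strand, 216 bases that end at the listed transcript start, and for Col4a6 chrX:141474077-141474326 on the minus strand. Capitals mark a CCAAT box of Col4a5 (first base 162 bases before the start) and a GC box of Col4a6 on the other strand (21 bases before the start).
Col4a5: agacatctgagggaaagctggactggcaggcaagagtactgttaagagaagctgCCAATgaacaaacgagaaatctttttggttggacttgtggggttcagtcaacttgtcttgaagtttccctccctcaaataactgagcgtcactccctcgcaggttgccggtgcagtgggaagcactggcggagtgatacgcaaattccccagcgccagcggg
Col4a6: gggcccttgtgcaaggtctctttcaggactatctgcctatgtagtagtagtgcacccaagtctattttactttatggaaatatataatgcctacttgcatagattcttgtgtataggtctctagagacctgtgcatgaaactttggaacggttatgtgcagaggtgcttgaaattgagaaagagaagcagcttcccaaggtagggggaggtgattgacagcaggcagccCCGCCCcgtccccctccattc
The shown 216 bases of Col4a5 held no GC box, but its full RefSeq promoter, which runs 34 bases further, held a GC box as that of Col4a6 did. A promoter was found for 43 of the 64 members. CCAAT was present in 15 of them (34.9%, against 33.8% of 32817 promoters), GGGCGG in 28 (65.1% against 32.7%), TATAAA in 5 (11.6% against 12.4%) and TGACTCA in 1 (2.33% against 4.46%). GGGCGG stood in 8 of the 12 promoters of members higher at 48 h and in 13 of the 22 of members lower. The 32817 promoters are more than the 12089 transcripts of the table, so they are an unlike set, and the differences were not tested. For 31 of the 43 members the promoter's start lay within 100 bases of the listed transcript's start. These counts describe letters and not binding.

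Col7a1, Col15a1 and Col18a1 fell. Col7a1, the anchoring fibril collagen, read 1234, 990 and 779 at 0 h, 85 and 130 at 12 h, 115, 186 and 155 at 24 h, 186, 144 and 265 at 36 h, 195, 370 and 270 at 48 h and 664 in the tissue. After the fall at 12 h (log2 -3.21, SE 0.32, adjusted p = 3.49e-06) it regained part of its level by 48 h (12 h to 48 h, log2 1.35, SE 0.32, adjusted p = 0.00556). The regain was not called without 12 h replicate 1 (adjusted p = 0.075, 0.00363 to 0.075 over all alternatives). Col15a1, a basement membrane collagen of vessels and muscle, scored 1864, 2138 and 2320 at 0 h, 480 and 222 at 12 h, 203, 252 and 174 at 24 h, 119, 129 and 141 at 36 h, 68, 194 and 134 at 48 h and 2426 in the tissue. Col18a1, the parent of endostatin, scored 5121, 3643 and 3093 at 0 h, 1304 and 1305 at 12 h, 776, 742 and 777 at 24 h, 696, 731 and 1003 at 36 h, 565, 861 and 659 at 48 h and 5620 in the tissue. Cultured libraries lay below 0 h throughout in both genes, with log2 changes of -4.11 (SE 0.33, adjusted p = 2.27e-07) and -2.50 (SE 0.19, adjusted p = 1.31e-07). All 11 endothelial markers fell over the same interval, with a median log2 change of -5.86, and the part of endothelial cells in these falls was not tested.

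Laminins are trimers of an alpha, a beta and a gamma chain, and 4 of 11 chains rose and 4 fell by 48 h. This is 36.4% each way, against 37.1% and 34% of all transcripts. Lama1, the alpha chain of the early embryonic laminin, scored 881, 1156 and 1414 at 0 h, 81 and 81 at 12 h, 141, 67 and 66 at 24 h, 185, 203 and 165 at 36 h, 274, 162 and 123 at 48 h and 673 in the tissue. It dropped by 12 h (log2 -3.78, SE 0.35, adjusted p = 1.81e-06) and was partly regained by 48 h (12 h to 48 h, log2 1.11, SE 0.35, adjusted p = 0.0233). That regain was not called without 12 h replicate 1 or 2 or 48 h replicate 1 (adjusted p = 0.0984, 0.0798 and 0.0815, and 0.00842 to 0.0984 over all alternatives). Lama2, the gene of the muscle laminin chain, is listed by a retained intron transcript of 2 exons and scored 1828, 2586 and 3208 at 0 h, 746 and 662 at 12 h, 822, 796 and 604 at 24 h, 1116, 1121 and 1170 at 36 h, 1115, 994 and 804 at 48 h and 1836 in the tissue. Its 48 h level was 2.57-fold below 0 h (log2 -1.36, SE 0.18, adjusted p = 2.34e-05), with no overlap.

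Lamc3, a gamma chain known from the brain surface, fell most among laminins, with 437, 1047 and 972 at 0 h, 25 and 23 at 12 h, 6, 31 and 41 at 24 h, 28, 26 and 59 at 36 h, 65, 69 and 21 at 48 h and 612 in the tissue. Its log2 change was -4.94 at 12 h (SE 0.72, adjusted p = 7.79e-05) and -4.03 at 48 h (SE 0.64, adjusted p = 9.63e-05). Lamb1, the widespread beta chain, dipped and came back, with 11557, 12028 and 12916 at 0 h, 6679 and 6906 at 12 h, 9380, 9770 and 10049 at 24 h, 11557, 11028 and 8912 at 36 h, 14316, 10397 and 12028 at 48 h and 11028 in the tissue. The dip (log2 -0.84, SE 0.13, adjusted p = 1.69e-04) and the return from 12 h to 48 h (log2 0.84, SE 0.13, adjusted p = 4.07e-04) were of the same size, and 48 h overlapped 0 h. Lama4 and Lamb2 rose by 48 h (log2 0.78 and 0.80, SE 0.14 and 0.19, adjusted p = 3.18e-04 and 0.00191). Lamc1 read 6010, 6010 and 7759 at 0 h and 11136, 9837 and 7095 at 48 h, and its call (log2 0.49, SE 0.19, adjusted p = 0.0342) was lost without 0 h replicate 1, 0 h replicate 2, 48 h replicate 1 or 48 h replicate 2 (adjusted p 0.0946 to 0.14, and 0.00669 to 0.14 over all alternatives).

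The values of Lamb3, a chain of the laminin under epithelial cells, turned on 1 library. Lamb3 read 488, 48 and 52 at 0 h and 69, 192 and 136 at 48 h, and Lama5, an alpha chain of many basement membranes listed by a processed transcript, 1373, 298 and 362 and 604, 711 and 439. Neither was called, but without 0 h replicate 1 both were (log2 1.27, adjusted p = 0.015 and log2 0.80, adjusted p = 0.00975). Over all alternatives the adjusted p of Lamb3 ran from 0.015 to 0.919 and that of Lama5 from 0.00975 to 0.949. Lama3 fell in the fit with all libraries (log2 -1.28, SE 0.32, adjusted p = 0.00273) and without that library (log2 -0.95, adjusted p = 0.0132). The same library had the high epithelial marker sum, with Krt14 at 5832 against 645 and 838, and the part of epithelial cells in these values was not tested.

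Of nidogens and perlecan, the linkers of the basement membrane, 2 of 3 rose and none fell by 48 h (66.7% and 0%, against 37.1% and 34% of all transcripts). Hspg2 scored 3510, 3770 and 5329 at 0 h, 7393 and 3827 at 12 h, 5892, 5711 and 4608 at 24 h, 7580, 7710 and 7497 at 36 h, 10075, 7049 and 6924 at 48 h and 3904 in the tissue. Its log2 change at 48 h was 0.93 (SE 0.23, adjusted p = 0.00253), and the listed row is a processed transcript. Nid1 read 7458, 8782 and 9634 at 0 h, 9450 and 6646 at 12 h, 7960, 7759 and 6445 at 24 h, 11136, 10754 and 10148 at 36 h, 12563, 10754 and 10754 at 48 h and 6236 in the tissue. The change was small (log2 0.40, SE 0.14, adjusted p = 0.0197) and not called without 0 h replicate 1 or 48 h replicate 1 (adjusted p = 0.0872 and 0.075, and 0.0078 to 0.0872 over all alternatives). Nid2 was above 0 h at 36 h (log2 1.07, SE 0.27, adjusted p = 0.0036) but overlapped it at 48 h.

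**Figure D3:**
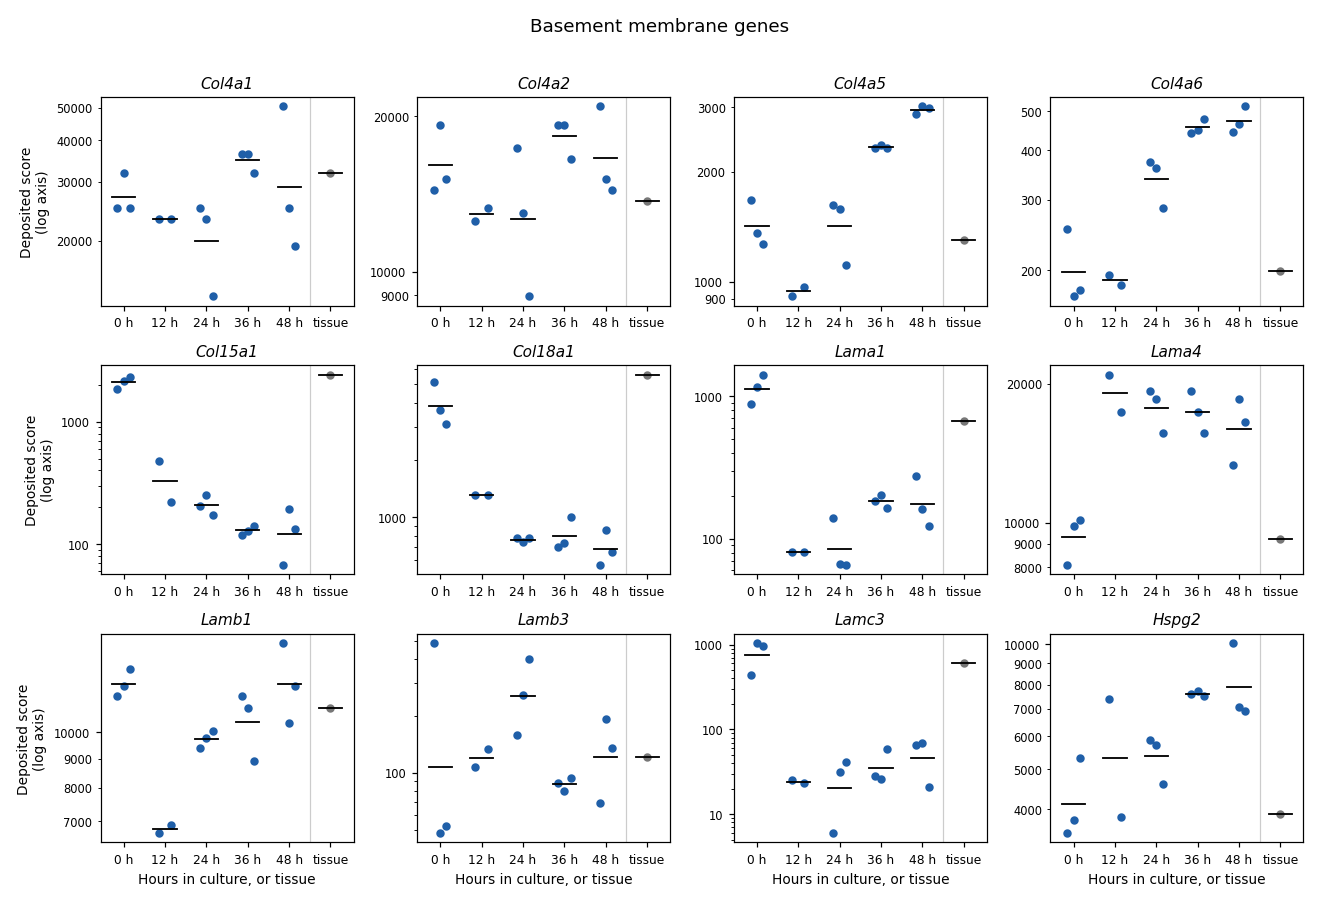
Deposited score (log axis, its range set for each gene) of 12 basement membrane genes in each library; points are libraries, bars the mean of log2(score + 1) turned back to a score, and the tissue (grey) has 1 library. Col4a5 and Col4a6 climb to 48 h, Col15a1, Col18a1, Lama1 and Lamc3 drop by 12 h, and the single high 0 h point of Lamb3 is 0 h replicate 1.

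Among the genes of elastic fibres, 1 of 6 rose and 4 fell by 48 h (16.7% and 66.7%, against 37.1% and 34% of all transcripts). Eln, for the elastic core protein, scored 6575, 6575 and 3560 at 0 h, 1082 and 1243 at 12 h, 1441, 676 and 269 at 24 h, 1337, 1286 and 1063 at 36 h, 657, 607 and 198 at 48 h and 10111 in the tissue. It fell 12.5-fold by 48 h (log2 -3.64, SE 0.54, adjusted p = 4.86e-05), every cultured library lay below 0 h, and the tissue was above all cell libraries. Fbn2, the fibrillin of embryonic microfibrils, scored 20902, 23229 and 36409 at 0 h, 36409 and 14391 at 12 h, 20902, 7913 and 6631 at 24 h, 16524, 17385 and 7913 at 36 h, 5483, 4655 and 4615 at 48 h and 17385 in the tissue. Its libraries overlapped 0 h at 12 h and 24 h, and it was called lower at 24 h (log2 -1.34, adjusted p = 0.018), not called at 36 h (log2 -0.99, adjusted p = 0.0646) and called lower at 48 h (log2 -2.41, SE 0.45, adjusted p = 3.30e-04). Fbn1, the other fibrillin, read 13266, 19215 and 23160 at 0 h and 15054, 15579 and 13634 at 48 h and was not called (log2 -0.29, SE 0.16, adjusted p = 0.126), though it was lower without 0 h replicate 1 (log2 -0.52, adjusted p = 0.00273, and 0.00273 to 0.503 over all alternatives).

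The fibulins, which bind elastin and basement membrane proteins, split. Fbln1 scored 3123, 3082 and 3045 at 0 h, 948 and 821 at 12 h, 559, 577 and 602 at 24 h, 568, 524 and 446 at 36 h, 402, 476 and 577 at 48 h and 3175 in the tissue. Fbln2 scored 11608, 12952 and 12492 at 0 h, 2624 and 2596 at 12 h, 2410, 2318 and 2213 at 24 h, 3313, 3240 and 3578 at 36 h, 4108, 4219 and 3357 at 48 h and 11063 in the tissue. In neither gene did a cultured library reach the 0 h range, with log2 changes at 48 h of -2.68 (SE 0.12, adjusted p = 1.56e-09) and -1.67 (SE 0.09, adjusted p = 5.20e-09). Fbln2 was lowest at 24 h and stood higher at 48 h than at 12 h (log2 0.57, SE 0.1, adjusted p = 7.41e-04), whereas Fbln1 went on falling (log2 -0.88, SE 0.14, adjusted p = 3.76e-04). Fbln5, which brings elastin to microfibrils, rose instead, with 1498, 1803 and 1643 at 0 h, 5693 and 4844 at 12 h, 5179, 4169 and 3608 at 24 h, 5305, 5363 and 4241 at 36 h, 3470, 4169 and 3769 at 48 h and 2458 in the tissue. Its rise by 12 h (log2 1.68, SE 0.15, adjusted p = 1.64e-06) was followed by a small decline (12 h to 48 h, log2 -0.47, SE 0.15, adjusted p = 0.0273), and at 48 h it was still 2.31-fold above 0 h (adjusted p = 5.08e-06). The decline was not called without 12 h replicate 1, 48 h replicate 1 or 48 h replicate 3 (adjusted p = 0.204, 0.0803 and 0.0577, and 0.0142 to 0.204 over all alternatives).

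Of the 5 lysyl oxidases, 2 rose and none fell by 48 h (40% and 0%, against 37.1% and 34% of all transcripts). Lox, the main enzyme that crosslinks collagen and elastin, scored 3719, 4470 and 3091 at 0 h, 31853 and 23229 at 12 h, 50479, 31853 and 13296 at 24 h, 70675, 70675 and 127101 at 36 h, 127101, 40667 and 31853 at 48 h and 12971 in the tissue. All cultured libraries exceeded both the 0 h libraries and the tissue. The rise was 7.31-fold at 12 h (log2 2.87, SE 0.58, adjusted p = 9.21e-04), 23.1-fold at 36 h (log2 4.53, SE 0.51, adjusted p = 4.99e-06) and 14.7-fold at 48 h (log2 3.88, SE 0.51, adjusted p = 1.90e-05). Without 48 h replicate 1, which stood at the largest score, the 48 h rise was 9.68-fold (log2 3.27, adjusted p = 4.95e-05). Loxl4 scored 45, 56 and 45 at 0 h, 83 and 76 at 12 h, 111, 160 and 160 at 24 h, 191, 204 and 193 at 36 h, 163, 350 and 208 at 48 h and 215 in the tissue. It was 4.64-fold higher at 48 h (log2 2.21, SE 0.24, adjusted p = 3.46e-06), with 48 h and 0 h apart.

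The other lysyl oxidases were not called at 48 h. Loxl1, the elastin-directed enzyme, and Loxl2, which also acts on type IV collagen, were higher at 36 h (log2 0.59, SE 0.16, adjusted p = 0.00505 and log2 1.12, SE 0.23, adjusted p = 7.51e-04). At 48 h Loxl1 gave log2 0.26 (SE 0.16, adjusted p = 0.164) and Loxl2 log2 0.54 (SE 0.23, adjusted p = 0.0503). Loxl1 was called without 0 h replicate 2 (adjusted p = 0.0281, 0.0281 to 0.459 over all alternatives), and Loxl2 without 24 h replicate 1 or 3 (adjusted p = 0.00559 and 0.0134, 0.00378 to 0.155 over all alternatives). Loxl3, listed by a processed transcript of 462 bases, scored 1119, 1309 and 974 at 0 h, 392 and 509 at 12 h, 600, 1277 and 870 at 24 h, 574, 582 and 669 at 36 h, 623, 2302 and 1628 at 48 h and 1272 in the tissue. It was lower at 12 h (log2 -1.33, SE 0.43, adjusted p = 0.017) and higher at 48 h than at 12 h (log2 1.57, SE 0.43, adjusted p = 0.0108), with 48 h replicate 1 far below the other 48 h libraries. Without 12 h replicate 1 neither step was called (adjusted p = 0.109 and 0.088), without 0 h replicate 2 the first was not (0.051), and without 48 h replicate 1 the gene was called higher at 48 h than at 0 h (0.0207). Over all alternatives these adjusted p-values ran from 0.00111 to 0.109, from 2.66e-04 to 0.088 and from 0.0207 to 0.865.

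Of the 3 lysyl hydroxylases, 2 rose and none fell by 48 h (66.7% and 0%, against 37.1% and 34% of all transcripts). Plod2 and Plod3 rose and Plod1 dipped. Plod1, which acts on the collagen helix, scored 1640, 1751 and 1576 at 0 h, 989 and 865 at 12 h, 1162, 1055 and 843 at 24 h, 1663, 1586 and 1814 at 36 h, 1471, 1476 and 1239 at 48 h and 2161 in the tissue. The dip at 12 h (log2 -0.84, SE 0.13, adjusted p = 1.41e-04) was followed by a rise to 48 h (log2 0.59, SE 0.13, adjusted p = 0.00359), and 48 h was not called against 0 h (adjusted p = 0.0732). Leaving out 24 h replicate 3 brought that last comparison to 0.0332, in a range of 0.0332 to 0.262. Plod2, which acts on the telopeptides, scored 3536, 3519 and 2527 at 0 h, 2421 and 2774 at 12 h, 4435, 2810 and 2341 at 24 h, 6703, 7240 and 7240 at 36 h, 6333, 4583 and 5164 at 48 h and 4533 in the tissue. It was not called at 12 h and stood 1.68-fold above 0 h at 48 h (log2 0.75, SE 0.21, adjusted p = 0.00535). Plod3, which also adds sugars to hydroxylysine, scored 1838, 1964 and 1729 at 0 h, 3797 and 3797 at 12 h, 4217, 4106 and 3529 at 24 h, 4270, 4217 and 4426 at 36 h, 4426, 4608 and 4217 at 48 h and 2197 in the tissue. All cultured libraries stood above 0 h and tissue, by 2.4-fold at 48 h (log2 1.26, SE 0.08, adjusted p = 2.28e-08).

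Sparc, a collagen-binding matricellular protein, scored 15128, 12523 and 10111 at 0 h, 25068 and 20924 at 12 h, 25068, 20924 and 18563 at 24 h, 36428, 36428 and 31886 at 36 h, 36428, 25068 and 20924 at 48 h and 28882 in the tissue. Every cultured library lay above the 0 h libraries, with a log2 change of 1.11 at 48 h (SE 0.2, adjusted p = 2.68e-04). The tissue lay above the 0 h libraries as well.

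**Figure D4:**
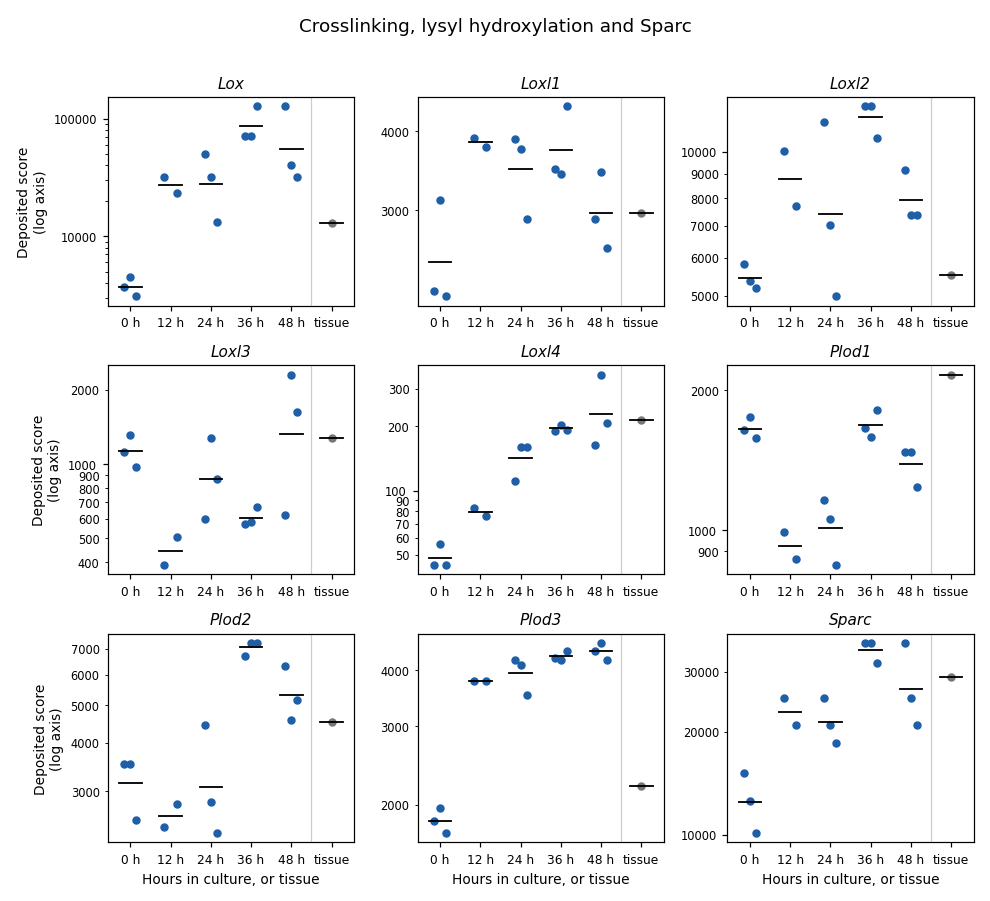
Deposited score (log axis, its range set for each gene) of the lysyl oxidases, the lysyl hydroxylases and Sparc in each library; points are libraries, bars the mean of log2(score + 1) turned back to a score, and the tissue (grey) has 1 library. Lox, Loxl4, Plod3 and Sparc stay above all 0 h libraries from 12 h on, and Loxl3 and Plod1 have their lowest mean at 12 h.

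Over time, 25 members were lower than at 0 h at all 4 culture times (all transcripts 21.0%) and 11 were higher at all 4 (23.0%), while 8 of the 64 were called at none (14.1%). From 12 h to 48 h, 12 members rose and 19 fell (all transcripts 21.2% and 21%). Among them, 8 of the 64 members had been called in the opposite direction from 0 h to 12 h (all transcripts 11.9%), and both comparisons share the 2 libraries at 12 h. They were Col4a5, Col7a1, Lama1, Lamb1, Fbln2, Loxl3 and Plod1, which fell and then rose, and Fbln5, which rose and then fell.

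Between neighbouring times, 4 members rose and 11 fell from 12 h to 24 h (all transcripts 4.59% and 3.67%). The fallers included Col3a1, Col8a2, Col18a1 and Fbln1, and the risers were Col5a2, Col4a5, Col4a6 and Lamb1. Leaving out single libraries moved these counts to between 1 and 6 and between 3 and 12. The lower bounds came without 12 h replicate 1 or without 24 h replicate 2, each with 1 riser and 3 fallers, and without 12 h replicate 2 there were 2 and 4, and without 24 h replicate 3 4 and 6. From 24 h to 36 h, 12 members rose, among them Lox, Plod1, Plod2, Sparc, Nid1, Nid2 and Lama1, and Col23a1 fell (all transcripts 10% and 9.64%). With a fold above 2 as well, 0 rose and 7 fell from 12 h to 24 h (1.42% and 0.993% of all transcripts), and 3 rose and 0 fell from 24 h to 36 h (2.04% and 1.37%). By the adjusted p alone, the risers from 24 h to 36 h numbered 19 without 24 h replicate 1, 5 without 24 h replicate 2, 4 without 24 h replicate 3, 36 h replicate 1 or 36 h replicate 2, and 7 without 36 h replicate 3. The count of fallers was 4 without 48 h replicate 1 and 2 without 0 h replicate 1 or 2, 24 h replicate 2 or 3 or 48 h replicate 2. From 36 h to 48 h no member was called by limma in either direction (all transcripts 0% and 0.0248%), and at an unadjusted p under 0.05 there were 4 higher and 12 lower (6.4% and 6.99% of all transcripts). Without 48 h replicate 1, 2 were higher and 1 lower, and without 24 h replicate 1, 3 were lower.

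Before culture, the tissue library lay above all 0 h libraries for 23 members, below them for 15 and within their range for 26 (all transcripts 29.7% above and 32% below). There is no replicate and no test. The tissue was more than 2-fold above the 0 h mean for 7 members (2.25% of all transcripts) and more than 2-fold below it for 2 (1.55%). Col22a1, a collagen of tissue junctions, read 903 in the tissue against 48 to 171 at 0 h, and Col11a2 read 1857 against 261 to 563. Lox read 12971 against 3091 to 4470. Loxl4 read 215 against 45 to 56, and Sparc 28882 against 10111 to 15128. Col14a1 and Col6a6 were 3.52-fold and 2.62-fold above the 0 h mean. Below it were Col6a3, with 13663 against 31828 to 127101, and Col12a1, with 40680 against 127101. Collagens that fell far in culture took different places. Col26a1 was 13304 in the tissue, below its 13679 to 16542 at 0 h. Col9a2 was 1507, above its 884 to 1256, and Col13a1 was 1203, within its 1027 to 1290.

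**Figure D5:**
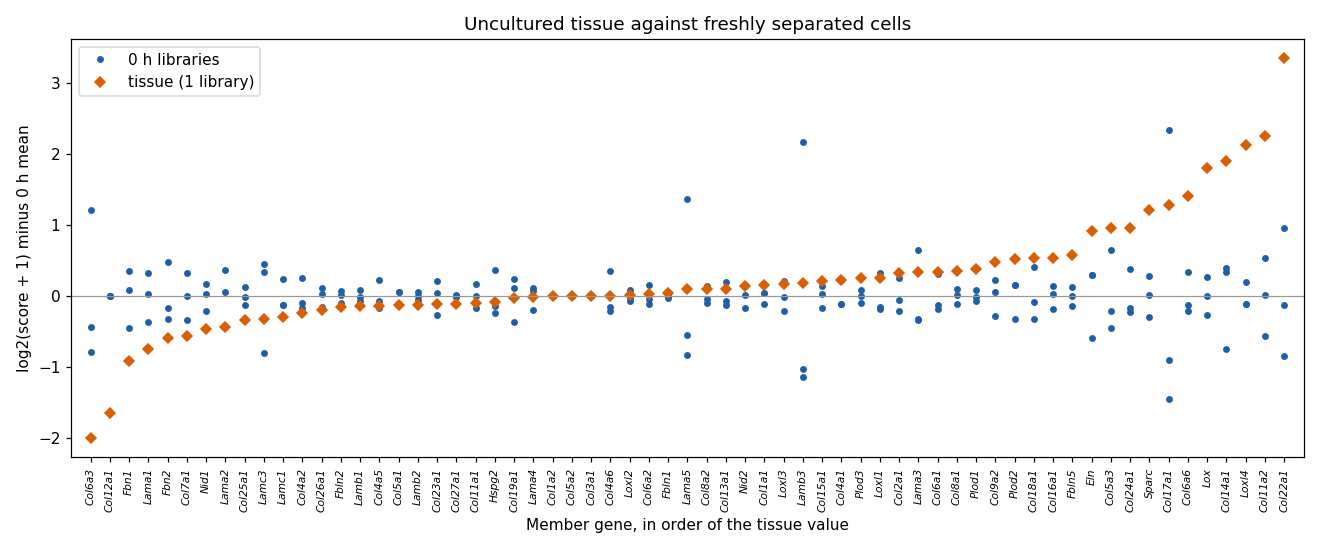
The score of 63 of the 64 matrix genes in the tissue library (orange diamond) and in the 3 libraries at 0 h (blue points), as log2(score + 1) minus the 0 h mean, in order of the tissue value. Col22a1, Col11a2, Loxl4, Col14a1 and Lox stand highest in the tissue and Col6a3 and Col12a1 lowest, and single 0 h points far above the rest are 0 h replicate 1 for Lama5, Lamb3 and Col17a1 and 0 h replicate 3 for Col6a3.

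Genes that work on these proteins were followed from lists set beside the members. Of 24 collagen processing genes, 9 rose and 13 fell by 48 h (37.5% and 54.2%, against 37.1% and 34% of all transcripts), with a median log2 change of -0.31. The largest rises were Pcolce2, an enhancer of procollagen cleavage (log2 1.94, SE 0.29, adjusted p = 5.96e-05), Tll1, a protease that trims procollagen (1.87, SE 0.15, adjusted p = 1.70e-07), and P3h4, a partner of lysyl hydroxylation (1.68, SE 0.1, adjusted p = 1.90e-08). The largest falls were Colgalt2, which adds galactose to collagen (-3.35, SE 0.35, adjusted p = 1.95e-06), and the procollagen N-proteinases Adamts14 (-2.46, SE 0.23, adjusted p = 9.14e-07) and Adamts3 (-1.95, SE 0.26, adjusted p = 1.72e-05).

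Of 12 microfibril and elastic fibre partners, 5 rose and 6 fell by 48 h (41.7% and 50%, against 37.1% and 34% of all transcripts), with a median log2 change of -1.06. Ltbp2 read 65, 168 and 81 at 0 h and 9610, 9217 and 7424 at 48 h (log2 6.49, SE 0.27, adjusted p = 6.39e-10). Mfap5 read 7, 6 and 2 against 167, 158 and 103 (4.67, SE 0.38, adjusted p = 2.17e-07). Ltbp1 rose by less (0.79, SE 0.14, adjusted p = 2.40e-04). Emilin3 fell from 1650, 1757 and 1464 to 1, 2 and 0 (-9.80, SE 0.44, adjusted p = 1.07e-09), and Mfap4 and Mfap2, both microfibril proteins, changed by -3.64 and -3.19 (SE 0.31 and 0.28, adjusted p = 3.18e-07 and 4.72e-07).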

How the data were processed

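RNA-seq libraries of mDMCs at 0 h (3), 12 h (2), 24 h (3), 36 h (3) and 48 h (3) and of dental mesenchymal tissue (1) were grouped by their labels, which name no batch. Per the methods of the study, the authors trimmed reads, used bowtie to align them to the mm10 transcriptome and RSEM to estimate expression. The submitters' processing notes name RSEM 1.1.21, whereas those methods name another version. The authors deposited 1 table of scores, whole numbers on a common scale with library totals between 21357605 and 21365980. The step that made this scale is not given in the sources used here. The table is named for cpm, a unit that such totals do not allow, so the scores were kept as they are, no count test was used and no interval from depth can be given.

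Of 12089 transcripts, 11973 matched a gene in GENCODE M21 (GRCm38, the build called mm10). Of the 64 members, 8 are listed by non-coding transcript types (Col3a1, Col19a1, Col25a1, Col27a1, Lama2, Lama5, Hspg2 and Loxl3), and whether such a score covers the gene or only that transcript is not stated. The fit used log2(score + 1) in limma 3.58.1 under R 4.3.3, a mean for each time, an intensity trend, two-sided tests and Benjamini-Hochberg adjustment. A transcript was tested where 2 or more libraries reached 1 ppm of their total. This step was tested on simulated data. Promoters were RefSeq sequences of GRCm38.p6, and the listed transcript started within 100 bases of the promoter's start for 31 of the 43 members matched. Python 3.11.15 with pandas 2.3.3 made the counts. The values of 1 member, which stays in the counts, are not reported here.

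The members, lists and tests were chosen with earlier results of these data known. Values in every library were given, by rule, for at most 4 called members per matrix type with the largest change from 0 h to 48 h, members that turned after 12 h, members at the largest score, and Sparc, Eln, Hspg2, Col1a1, Col1a2 and Col3a1. From each processing list up to 3 rises and 3 falls were named. The alternatives were a pseudocount of 0.1, other filters, trimmed-mean (TMM) scaling factors computed by their published formula, a fit without the trend, only the compared times, the replicate number as a block, a fold criterion, each library left out, and, chosen after seeing the data, 36 h replicates 1 and 2 as 1 library.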

Additional observations from a re-analysis of the deposited data

How the results depend on the processing

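Across 25 alternatives the counts against 0 h kept within 1.5 times their value, except that asking for a fold above 2 as well left 8 members higher at 12 h and 9 higher at 24 h, with adjusted or unadjusted p. Leaving out 1 library gave 10 to 13 higher and 24 to 30 lower at 12 h, 11 to 15 and 29 to 33 at 24 h, 20 to 21 and 28 to 30 at 36 h, and 16 to 19 and 29 to 32 at 48 h. Neighbouring times depended more on single libraries: 1 to 6 higher and 3 to 12 lower from 12 h to 24 h, 4 to 19 and 1 to 4 from 24 h to 36 h, 0 to 2 and 0 to 3 from 36 h to 48 h. With only the compared times, 1 was higher and 2 were lower from 12 h to 24 h, and 5 were lower from 24 h to 36 h. With a fold above 2 and an adjusted p, 0 were higher and 7 lower from 12 h to 24 h and 3 higher and 0 lower from 24 h to 36 h; with an unadjusted p, 0 were higher from 12 h to 24 h, 4 were higher from 24 h to 36 h, and 2 were higher and 3 lower from 36 h to 48 h. With 36 h replicates 1 and 2 as 1 library, 4 were higher from 24 h to 36 h. The cause of these shifts was not tested, apart from fewer libraries in the fits that leave some out. Replicate numbers did not pair the libraries: deviations of same-numbered libraries correlated between -0.25 and 0.318 over 26 pairs (mean 0.077, other numbers -0.038). The replicate block gave 2 lower from 24 h to 36 h, and at 48 h 19 higher and 31 lower than at 0 h.

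Of 192 changes of single members (0 h to 12 h, 0 h to 48 h and 12 h to 48 h), 122 were called, 26 of these lost the call in at least 1 alternative and 23 others gained one. None of the called changes took the opposite sign. Of all 4200 values of single members under the alternatives, 52 changed sign, each called neither there nor in the reported fit. The shared scale hides any change in total RNA and, at the largest score, any change in Col12a1, while the size of a change in Col1a2, Col3a1, Col5a2 and Lox is limited by it.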

Other observations

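Several members lie next to each other, and the pairs differed in how they moved from 0 h to 48 h. Coordinates are those of the listed transcripts (GRCm38). Col6a2 (chr10:76595762-76623630) and Col6a1 (chr10:76708792-76726168), both on the minus strand, fell together, with log2 changes of -2.55 and -1.30. Col4a6 (chrX:141165403-141474076, minus strand) and Col4a5 (chrX:141475385-141689234, plus strand) rose together. Col3a1 (chr1:45311538-45325018, plus strand) and Col5a2 (chr1:45374321-45503282, minus strand), 49302 bases apart, were called in opposite directions (log2 -1.54 and 1.33). Col26a1 (chr5:136741759-136883121, minus strand) and Plod3 (chr5:136987019-136996648, plus strand), 103897 bases apart, held the largest fall of all members and a 2.4-fold rise. Each of these pairs, and Col4a1 with Col4a2, lay under 200 kb apart.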
